A study of Mus musculus with 16 samples.

Results

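Pde2a and 8 other genes that encode cyclic nucleotide phosphodiesterases were followed in hippocampal microglia, macrophages that live in the brain throughout life. The members were taken by gene symbol from the deposited table of normalized counts (read counts that the authors scaled for library size). All 9 symbols were found, each once, among the 24015 rows of the table. The list was chosen by gene family and with the age differences of these samples already known, and Pde2a leads it because it was selected on its difference between aged and young samples. The age differences of the members are therefore given as a description of these samples and not as independent evidence.

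Microglia were sorted as live CD11b+CD45lo cells from the hippocampus of mice aged 3 months (6 samples, called young) or 20 months (6 samples, called aged). No treatment or genetic change is named in the labels, and they do not tell pooled animals from single ones, so p-values reflect sample-to-sample spread, part of which may be technical. The strain is given as C57BL/6 for every young sample and for aged samples 1 to 4. In aged samples 5 and 6 it reads C57BL/7, C57BL/8 and C57BL/9, with different endings on the technical replicates of aged 6, and the Pde2a log2 difference was 1.34 without these samples and 1.43 with them. Each of 4 samples, young 2 and 4 and aged 3 and 6, was made into 2 technical replicate libraries that the authors joined into 1 column.

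Phosphodiesterases break down the second messengers cAMP and cGMP, which are made by adenylyl and guanylyl cyclases. Adenylyl cyclases make cAMP after hormones, neurotransmitters, adenosine or prostaglandins bind their receptors. The families differ in substrate and control. PDE2 and PDE10 enzymes cleave both messengers, and PDE2A is switched on by cGMP, so that a rise of cGMP lowers cAMP. PDE3 enzymes cleave cAMP, though not cAMP alone, and are blocked by cGMP. PDE4, PDE7 and PDE8 enzymes act on cAMP, and PDE1 enzymes are activated by calcium and calmodulin. In microglia and macrophages, cAMP signalling is best known for restraining inflammatory cytokine production and for acting on process movement.

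The genes stood in samples with strong microglial markers. The summed level of 12 microglial marker genes was 73159 to 79284 CPM (normalized counts scaled to a sample total of 1000000) in young and 65725 to 72614 CPM in aged samples. Every aged sum thus lay below every young sum, and 1 of the 12 genes, Fcrls, was called lower with age. Of the 12 lists for other cell types, neuronal markers summed to 5.03 to 8.30 CPM in young and 6.52 to 10.7 CPM in aged samples, endothelial markers to 46.4 to 63.4 and 38.5 to 66.99 CPM, and monocyte markers to 2.37 to 4.65 and 4.69 to 7.35 CPM. Syp (neuronal list) and Aldh1l1 (astrocyte list) were called higher and Cd79b (B cell list) lower. The 12 lists together summed to 580 to 627 CPM in young and 619 to 796 CPM in aged samples. Depth was 11.4 M to 47.3 M reads in the 8 samples with 1 library each.

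Pde2a transcripts rose with age, and Pde2a was the only one of the 9 members that passed the test. It stood at 2835, 3101 and 3925 normalized counts (lowest, median and highest of 6 young samples) and at 7009, 8603 and 10912 in aged samples. Every aged sample lay above every young sample. The lowest aged value was that of aged 2 and the highest young value that of young 2. The means were 3253 ± 428 and 8801 ± 1342 normalized counts (SD, n = 6 each). The fold change was 2.70, a log2 difference of 1.43 with a standard error of 0.10 and a 95% interval of 2.32-fold to 3.14-fold (limma, adjusted p = 1.9e-07 over all genes tested). Log2 values were taken after adding a pseudocount of 1, which hardly touches a gene at this level.

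Of 11579 genes tested, 1.73% passed in either direction, 1.27% higher and 0.458% lower at 20 months, beside 1 of 9 members higher and 0 lower. Because the members were chosen with this contrast known, nothing is read from that share. The ages did not overlap in 1.87% of tested genes, with aged samples above in 1.16%, and among the members this held for Pde2a alone. Pde2a ranked 45th by fold among the 147 genes called higher. Among the 81 of them that were at least 2-fold higher, it had the highest mean level in aged samples, ahead of Cd74, the invariant chain of MHC class II, at 5773 normalized counts.

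Pde2a was set beside the summed markers of other cell types. It reached 105 to 145 CPM in young and 267 to 405 CPM in aged samples. The neuronal, monocyte, endothelial and choroid plexus sums each stayed below the Pde2a level in every aged sample. Astrocyte markers summed to 207 to 259 CPM in young and 214 to 282 CPM in aged samples, and oligodendrocyte markers to 219.8 to 259 and 223 to 263 CPM. In young samples both sums lay above the Pde2a level. In aged samples the highest astrocyte sum, 282 CPM, lay above the lowest Pde2a level, 267 CPM, and the oligodendrocyte sums lay below it. A marker sum below the Pde2a level does not limit how much Pde2a RNA a cell type could supply, and that amount was not tested. Choroid plexus markers summed to 9.95 to 49.3 CPM in young and 16.5 to 132 CPM in aged samples, with medians of 21.6 and 74.8. Border macrophage markers summed to 7.96 to 13.99 and 6.56 to 25.6 CPM, with medians of 11.2 and 14.4. Both medians moved in the same direction as Pde2a, while the ages overlapped. Monocyte markers also moved that way, with no overlap of the ages. The medians of the endothelial, pericyte, neutrophil, T and NK cell and B cell lists were lower in aged samples. The part of these lists in the result was not tested. In bulk samples, fewer or more cells of a type and a change of RNA per cell cannot be told apart.

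**Figure D1:**
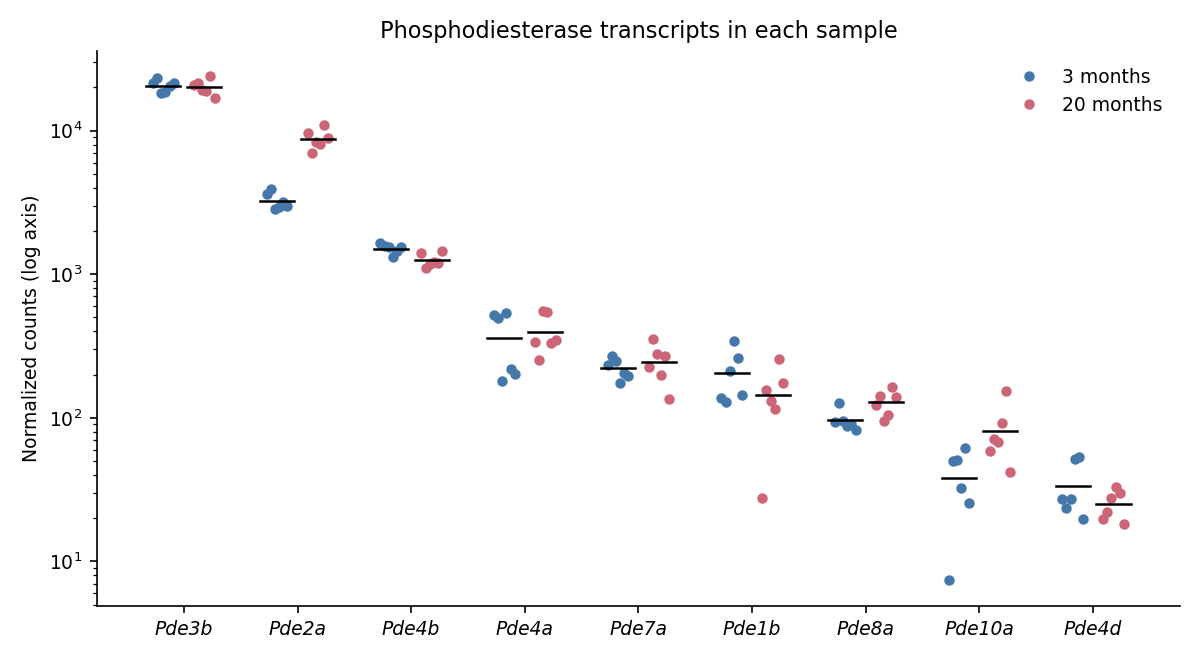
Normalized counts (log axis) of the 9 members in each of 6 young (blue) and 6 aged (red) samples, with a black line at each mean. Pde2a is the one gene whose aged samples (7009 to 10912) all lie above its young samples (2835 to 3925).

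Pde2a lies on chromosome 7 at 101421691 to 101512827 on the plus strand (mm10, the same assembly as GRCm38; GENCODE M21 identifier ENSMUSG00000110195) and is a protein-coding gene. Its exons overlap those of a read-through gene model, Gm45837, by 3955 bases. That model has no row of its own in the table, so reads of both would not be told apart. RefSeq lists 5 start sites for the gene. Which of them microglia used cannot be read from counts per gene. The 250 bases before 2 of these starts are shown because Pde2a is the only member that passed the test. The first lies before the most upstream start, at chr7:101421441-101421690, and the second before an inner start, at chr7:101451002-101451251 (RefSeq, GRCm38.p6, plus strand, 5′ to 3′). Capitals mark GC boxes, the letters GGGCGG on either strand.
Pde2a upstream start: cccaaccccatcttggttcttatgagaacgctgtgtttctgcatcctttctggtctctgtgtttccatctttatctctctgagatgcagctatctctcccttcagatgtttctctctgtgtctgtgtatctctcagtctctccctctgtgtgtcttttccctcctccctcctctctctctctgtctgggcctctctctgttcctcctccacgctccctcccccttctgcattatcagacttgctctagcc
Pde2a inner start: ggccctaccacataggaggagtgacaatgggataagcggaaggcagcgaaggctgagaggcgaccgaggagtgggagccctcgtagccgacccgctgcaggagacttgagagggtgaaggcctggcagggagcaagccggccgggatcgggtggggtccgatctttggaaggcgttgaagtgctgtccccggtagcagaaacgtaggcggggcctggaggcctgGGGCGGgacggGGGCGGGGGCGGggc

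The inner window is richer in G and C, at 68.0% against 50.8%, and holds 3 GC boxes, the last 2 of them side by side, while the upstream window and the other 3 Pde2a windows hold none. The 2 windows shown are the lowest and the highest of the 5 in G and C. Neither overlaps an annotated exon. At least 1 GC box was found in 1 of 5 Pde2a windows, in 6 of the 19 windows of the 7 members present in the RefSeq table and in 32.7% of all 32851 RefSeq windows of this length. The cAMP response element, the site bound by CREB, was searched on both strands as the palindrome TGACGTCA and as its short form TGACG, which the palindrome contains. None of the 5 Pde2a windows held either. Among the 19 windows of members, 3 held the short form, 1 each for Pde4a, Pde4b and Pde8a, against 17.8% of all windows, and none held the palindrome, against 1.55%. These matches describe letters and not binding.

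The genes beside Pde2a, taken by position after its difference was seen, did not pass the test. Arap1, a GTPase-activating protein gene 9.11 kb upstream, stood at 9993 ± 620 normalized counts in young and 10228 ± 1525 in aged samples (SD, n = 6; limma, adjusted p = 0.960). Its 95% interval ran from 0.90-fold to 1.15-fold. Clpb, a mitochondrial chaperone gene 151 kb downstream, was at 1029 ± 189 and 1032 ± 73.5, and Atg16l2, an autophagy-related gene 119 kb upstream, at 217 ± 31.2 and 229 ± 35.6 (limma, adjusted p = 0.974 and 0.919). Art2b and Phox2a were listed at 0 in every sample, and Stard10 was below the minimum for testing. The microRNA gene Mir139, which lies in an intron of Pde2a, was listed at 0 in all 12 samples. Whether the mature microRNA was present was not tested.

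Pde3b, the PDE3 isoform known from insulin signalling, was the most abundant member at both ages. It stood at 18365, 20914 and 23301 normalized counts (lowest, median and highest of 6 young samples) and at 16945, 20061 and 24037 in aged samples. The ages overlapped almost completely. The 95% interval of the fold change ran from 0.87 to 1.11 (limma, adjusted p = 0.958), which leaves out a change of the size seen for Pde2a. Pde3b lies on chromosome 7 at 114415281 to 114539251 on the plus strand (mm10).

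The 2 most abundant members were also set against each other. Per kilobase of annotated exons, Pde2a stood at 529 ± 69.6 normalized counts in young and 1431 ± 218 in aged samples, and Pde3b at 2256 ± 210 and 2224 ± 267 (SD, n = 6). The ratio of Pde2a to Pde3b per kilobase was 0.208 to 0.250 in young and 0.484 to 0.779 in aged samples. Of the summed level per kilobase of the 9 members, Pde2a made up 15.8% to 18.2% in young and 30.4% to 40.5% in aged samples, while Pde3b went from 72.0% to 76.1% down to 51.9% to 62.8%. The sum itself was 3071 ± 279 and 3924 ± 422 normalized counts per kilobase. These values carry the Pde2a difference in another form and are no second result.

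**Figure D2:**
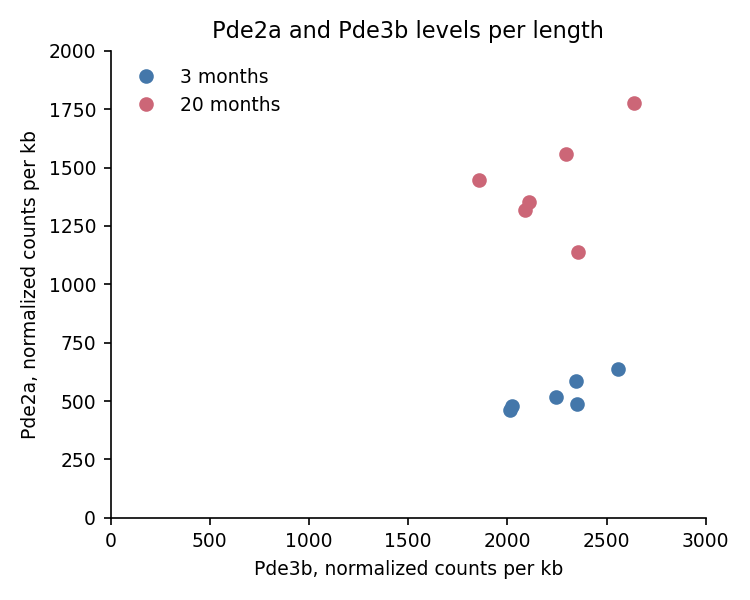
Level of Pde2a against Pde3b, both in normalized counts per kilobase of exon, for each of 6 young (blue) and 6 aged (red) samples. The ages overlap along the Pde3b axis, while Pde2a lies at 461 to 638 in young and 1140 to 1775 in aged samples.

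The PDE4 genes encode the cAMP-specific enzymes that rolipram inhibits. Pde4b, the member of this family most tied to inflammatory signalling in myeloid cells, was the third most abundant member. It stood at 1313, 1538 and 1638 normalized counts (lowest, median and highest of 6 young samples) and at 1103, 1205 and 1449 in aged samples. All 6 aged samples lay below the young median and 4 lay below every young sample, but the ages overlapped through aged 1 and 6. The means were 1508 ± 112 and 1258 ± 139, a log2 difference of -0.27 with a standard error of 0.09 (limma, adjusted p = 0.178). The 95% interval for the fold by which young exceeded aged samples was 1.06 to 1.36 before adjustment over all genes, and the gene did not pass.

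Pde4a was scattered within each age. Within the young samples, numbers 1, 2 and 4 stood at 518, 498 and 541 normalized counts, and numbers 3, 5 and 6 at 181, 220.1 and 204. In aged samples it ran from 251 to 551, with aged 3 and 4 at 551 and 548 and the other 4 at 251 to 349. The spread within an age was thus larger than the difference between ages (means of 360.2 ± 175 and 395 ± 125, SD, n = 6; limma, adjusted p = 0.875). Pde4d was low, at 19.7 to 53.2 normalized counts in young and 18.2 to 32.9 in aged samples (limma, adjusted p = 0.810). In the 8 samples with 1 library its level rested on 11 to 94 reads, so counting error alone is sizeable there. Its 95% interval ran from 0.50-fold to 1.24-fold.

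The PDE7 and PDE8 members, cAMP enzymes that rolipram does not block, were modest. Pde7a stood at 176, 219 and 267 normalized counts (lowest, median and highest of 6 young samples) and at 134, 247 and 353 in aged samples, with both the lowest and the highest of the 12 values in aged samples (limma, adjusted p = 0.933). Pde8a stood at 82.1, 91.9 and 128 in young samples and at 94.7, 132 and 163 in aged samples. All 6 aged samples lay above the young median, while young 2, at 128, lay above aged 1, 3 and 4. The means of Pde8a were 96.1 ± 16.1 and 128 ± 25.5, a log2 difference of 0.41 with a standard error of 0.17, and it did not pass (limma, adjusted p = 0.381).

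Pde1b and Pde10a encode enzymes that cleave both messengers, and their transcripts were scattered, those of Pde10a also low. Pde1b, a calcium-activated enzyme gene, stood at 130, 179 and 345 normalized counts (lowest, median and highest of 6 young samples) and at 27.7, 143 and 257 in aged samples. Aged 1 was far below all other samples, and the log2 difference of -0.67 had a standard error of 0.40 (limma, adjusted p = 0.633). It was -0.26 without aged 1 and -1.08 without aged 5 and 6. Pde10a, best known from striatal neurons, stood at 7.37, 41.2 and 61.7 normalized counts in young samples and at 42.1, 69.6 and 155 in aged samples. All 6 aged samples lay above the young median and 4 above every young sample. The log2 difference was 1.21 with a standard error of 0.43, and it did not pass (limma, adjusted p = 0.239). It was 0.81 without young 1 and 0.97 with a pseudocount of 10. The lowest value, in young 1, rested on 3 reads, and the 8 samples with 1 library held 3 to 151 reads. The neuronal sums given above overlapped between the ages, and their part in the Pde10a values was not tested.

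**Figure D3:**
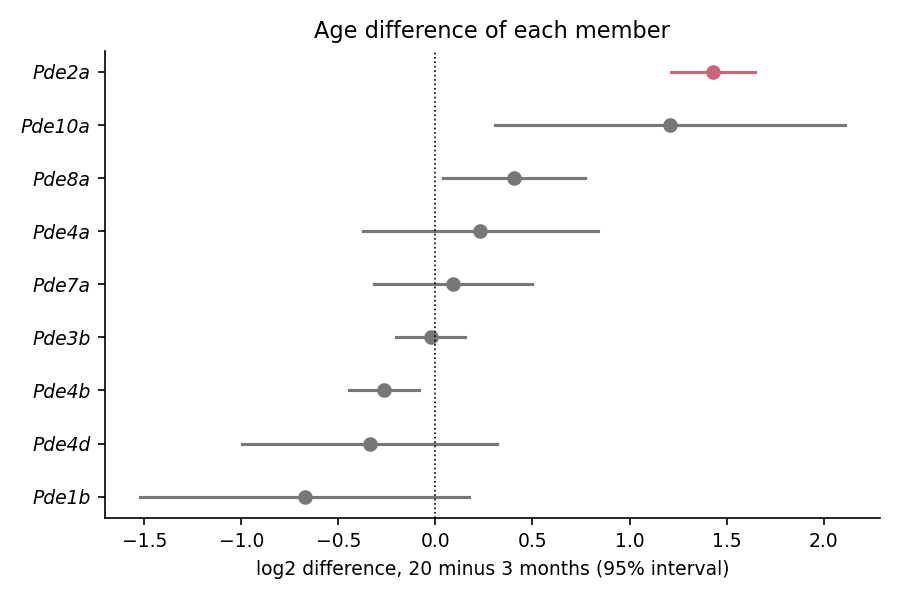
Log2 difference between aged and young samples for each member (point) with its 95% interval (line) from limma over 6 samples per age, before adjustment for the number of genes. Pde2a (red) at 1.43 is the gene past the threshold, and Pde10a at 1.21 has a wide interval, from 0.31 to 2.11.

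Of the 8 members that did not pass, 4 were above 0 and 4 below, with log2 differences from -0.67 to 1.21. The median of all 9 was 0.09, beside 0.0016 over all tested genes. At an unadjusted p under 0.05 the 8 held 3 genes, Pde4b, Pde8a and Pde10a, and 10.8% of all tested genes met that level. A p that missed the threshold does not show that a gene stayed level.

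Ordered by level per kilobase in young samples, the members ran Pde3b, Pde2a, Pde4b, Pde4a, Pde1b, Pde7a, Pde8a, Pde10a and Pde4d. The first 3 steps were clear, with 4.27, 3.70 and 3.04 times between neighbours and no overlap of samples. From Pde4a to Pde8a, each gene overlapped with the next. Pde8a stood 8.04 times above Pde10a without overlap, and Pde10a and Pde4d overlapped at the bottom. In aged samples the first 4 places were the same, with Pde3b 1.55 times above Pde2a and Pde2a 12.02 times above Pde4b, again without overlap. Pde8a, Pde7a and Pde1b followed with overlapping samples, and then Pde10a, which stood 3.02 times above Pde4d without overlap. Dividing by exon length assumes that all annotated exons are used, which these data do not show.

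The table held 14 further genes from a list of the family. Pde8b, a high-affinity cAMP enzyme gene that is not among the members, was as high as Pde4a, at 349 to 494 normalized counts in young and 340 to 454 in aged samples (means of 429 ± 49.1 and 385 ± 43.4; limma, adjusted p = 0.725). The other 13 did not reach the minimum of 10 normalized counts in 6 of 12 samples. Pde1a, Pde3a, Pde5a, Pde6b, Pde6c, Pde6g, Pde6h, Pde7b, Pde9a and Pde11a reached at most 11.6 normalized counts in any sample. Pde1c, Pde4c and Pde6a were listed at 0 in every sample, where 3 reads in young 1, the shallowest of the 8 samples with 1 library, would be 7.37 normalized counts. The genes of PDE5 and PDE9, which are cGMP-specific, were therefore hardly detected at these depths. The listed genes above the minimum, the members and Pde8b, all encode enzymes that act on cAMP. Pde6d was not on the list and stood at 475 ± 61.2 normalized counts in young and 515 ± 57.3 in aged samples (limma, adjusted p = 0.816).

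The other genes of the pathway were read from 8 lists of the steps that make, sense and carry cyclic nucleotides. The lists held 116 symbols, a few of them older and newer names of the same gene. Of these, 63 were tested, 0 were higher and 0 lower (limma), and 10 had an unadjusted p under 0.05 (15.9%, beside 10.8% of all tested genes). The median log2 difference of the 63 was 0.024, beside 0.0016 over all. On the 7 samples whose whole reads were recovered, edgeR called 1 of the 63, the anchor gene Akap1. DESeq2 called 5, Akap1, Akap8, Adcy3, Gpr65 and Gnaz, and limma on the same samples called 0.

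Among the enzymes that make cAMP, 6 adenylyl cyclase genes were tested, with a median of -0.18. Adcy3 had the smallest p, at 755 ± 93.0 normalized counts in young and 568 ± 118 in aged samples (SD, n = 6; limma, adjusted p = 0.115). It passed without aged 3 (limma, adjusted p = 0.015) and with DESeq2 on recovered reads (adjusted p = 0.011), but not in the rest of the 26 alternatives. Aged 3, at 803, stood apart from the other aged samples, at 471 to 552. For guanylyl cyclases, the makers of cGMP, 13 symbols were listed, older and newer names of the same gene among them, and 11 were in the table. The 1 tested was Npr1, a natriuretic peptide receptor, at 15.3 ± 9.54 and 12.4 ± 4.37 (limma, adjusted p = 0.962).

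Upstream of the cyclases, 7 genes for Gs-coupled receptors and 5 for G protein alpha subunits were tested. Gpr65, a proton-sensing receptor, had the smallest p of the receptors, at 201 ± 18.97 normalized counts in young and 285 ± 60.6 in aged samples (SD, n = 6; limma, adjusted p = 0.159). It passed without aged 6 (limma, adjusted p = 0.019), without aged 5 and 6 together (0.047) and with DESeq2 on recovered reads (0.044). Gpr65 did not pass in the rest of the 26 alternatives. Gnaz, of the Gi family, was at 27.2 ± 8.98 and 49.998 ± 21.2 (limma, adjusted p = 0.328). Of the 26 alternatives, it passed only with DESeq2 on recovered reads (adjusted p = 0.043).

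Downstream, 9 genes for cAMP effectors, chiefly protein kinase A subunits and its inhibitors, had a median of 0.070, and 8 of 9 were above 0 by small amounts. Prkacb, a catalytic subunit of protein kinase A, had the smallest p among them, at 3693 ± 489 normalized counts in young and 3999 ± 394 in aged samples (SD, n = 6; limma, adjusted p = 0.761). Of 6 cGMP effector genes, Mrvi1, a target of cGMP-dependent kinase, was at 10.9 ± 9.56 and 20.3 ± 7.04 (limma, adjusted p = 0.451). All 12 genes for CREB and its partners were tested, with a median of 0.072, and Crtc1, a CREB coactivator, was at 759 ± 78.7 and 870.1 ± 79.9 (limma, adjusted p = 0.455). Of 17 tested genes for anchors, partners and exporters, Akap5, which tethers protein kinase A at membranes, was at 148 ± 21.2 and 97.2 ± 26.7 (limma, adjusted p = 0.126).

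**Figure D4:**
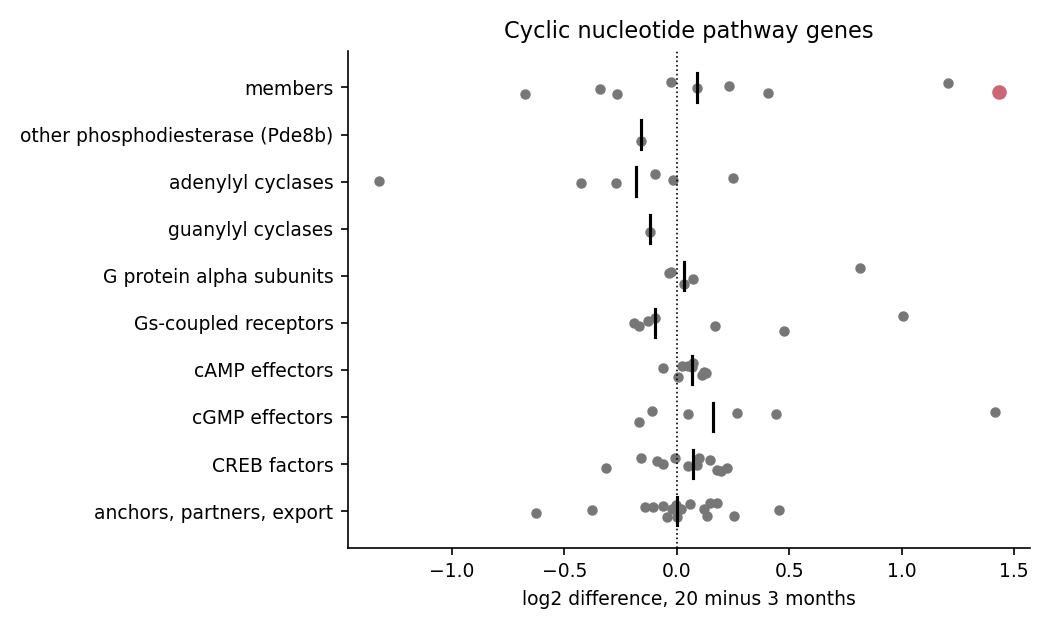
Log2 difference between aged and young samples for each tested gene (point) of the members and of the pathway lists, with a black line at the median of each list. The red point is Pde2a at 1.43, the one gene shown that passed limma's threshold.

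The samples of an age were also compared with one another. After the mean of each age was subtracted from log2 values, the Pearson correlation of Pde2a over the 12 samples was 0.55 with Pde3b, 0.52 with Pde8a, 0.48 with Pde4b and 0.0087 with Pde10a. The tested genes most like Pde2a by this measure were Slc44a2 (r = 0.92), Tbk1 (0.89), Coro7 (0.87), Bap1 (0.87) and Tbc1d20 (0.85), and the most opposite were Lrrc28 (-0.86), Mrpl33 (-0.86) and Iah1 (-0.84). These are the extremes of 11579 tested genes over 12 samples that share library preparation and scaling, and none of the 8 passed the age test (limma, adjusted p from 0.503 to 0.999).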

How the data were processed

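The authors deposited normalized counts, which are signal values of 0 or above, in 1 column for each of 12 samples. Per the series' design text and the submitters' processing notes, the authors demultiplexed reads with bcl2fastq, trimmed them with fastx_trimmer, aligned them with STAR to mm10, counted with samtools and used DESeq2 with standard settings. Versions and annotation: not given in the sources used here. Values above 0 in the 8 columns of single-library samples all fell on multiples of a column-specific step (100%, tolerance 0.1 of a read). Whole reads were used for count tests from 7 of them (young 1, 3, 5 and 6 and aged 1, 4 and 5), since the step of aged 2 lies close to 1. Columns of samples with 2 libraries were not searched for a step, and no whole reads were taken from them.

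Testing was limited to the 11579 genes with 10 normalized counts or more in 6 of 12 samples. Log2 values (pseudocount 1) of the ages were compared by limma (version 3.58.1, R 4.3.3), using a trended prior variance, two-sided tests and Benjamini-Hochberg adjustment over all these genes at 0.05. The same fit on simulated data for these 11579 genes recovered 163 of 200 changed genes with 12 false calls. The simulation gave every gene the same dispersion and all samples the same depth. Real genes differ in spread, so these figures check the fit and do not give its error rates in these data. Alternatives included edgeR 4.0.16 and DESeq2 1.42.0 on recovered reads. CPM are normalized counts scaled to the total of a sample. Exon lengths are all GENCODE M21 exons of a gene joined. The members, the lists and the named genes (all members and family genes, the called gene or that of smallest p in each list, and the genes most like Pde2a) were chosen with earlier results of these data known.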

Additional observations from a re-analysis of the deposited data

Results flagged for a closer look

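In groups of 6, a sample was singled out where its gap to the nearest other sample took up more of the range than Dixon's 95% critical value allows. Chance flags about 1 in 20 groups, and 6 of 70 were flagged here. Among the members this applied to Pde8a, where young 2 stood at 128 normalized counts and the other young samples at 82.1 to 95.2. Adcy3 stood at 803 in aged 3 and at 471 to 552 in the other aged samples. Akap5 stood at 106 in young 3 and at 151 to 167 in the other young samples. Summed markers stood apart in 3 lists, with oligodendrocyte precursor genes at 3.52 CPM in aged 2 (others 0.032 to 1.197), neutrophil genes at 3.38 CPM in aged 4 (others 0.15 to 0.72) and T and NK cell genes at 0.495 CPM in aged 5 (others 0 to 0.153).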

How the results depend on the processing

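Pde2a passed in all 26 alternatives, with log2 differences of 1.34 to 1.59 and adjusted p up to 9.7e-05, and of 1.37 to 1.49 in the 12 fits that left out 1 sample. In all 26 it was the only member called. The count of genes called, 200 in all, was 134 to 235 leaving out 1 sample. It was 78 with limma on the 8 samples with 1 library, and on the 7 samples with recovered reads 102 with edgeR, 88 with limma and 229 with DESeq2. Of the pathway genes, 0 to 1 was called leaving out 1 sample, 2 without aged 5 and 6 (Gpr65 and Ptger4), 1 with edgeR and 5 with DESeq2. Pde3b, near 0, ran from -0.0755 to 0.025 leaving out 1 sample, above 0 without young 2 (0.0126) and aged 6, and changed sign at 0.063 on the 8 samples, and 0.064 with edgeR, 0.065 with DESeq2 and 0.0595 with limma on the 7. Pde7a ran from -0.029 without aged 2 to 0.25 without aged 6. The cause of these changes was not tested, although fewer samples entered each. Not divided by length, 7 of 9 members kept their place in the order of levels in young samples and 6 in aged samples, and the same numbers held with the longest transcript. That length and the fit on 7 samples were chosen after seeing the data. Same-numbered samples of the 2 ages correlated at -0.12 to 0.11 in their deviations, 1 of 6 best with its own number, so the numbers were not taken as pairs. With the sample number as a replicate block, 145 genes were called, and Pde2a had a log2 difference of 1.43. In the 8 samples with 1 library, Pde4d rested on 11 to 94 reads and Pde10a on 3 to 151, so counting error is largest in young 1, with 11 and 3.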
